A study of Homo sapiens with 6 samples.

Results

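The nuclear envelope genes described here are LMNB1, LMNB2, LMNA, LBR, EMD, TMPO, SUN1, SUN2, SYNE2 and BANF1. They were taken by symbol from the deposited table, where each symbol belonged to 1 gene, and they make up 10 of 30717 genes and 129 of 121915 transcripts that carry a gene. All 10 passed the filter on low counts, which left 20721 genes. The family was selected on measured values of these libraries: knockdown against control in each line, line against line, and transcript shares, with LMNB1 already known to have a p among the lowest for knockdown. So every knockdown and line contrast of the 10 genes is given as a description and no p is printed for them. RNA came from 2 established human bladder cancer lines, T24 and UMUC3 (also written UM-UC-3). Each line has 1 control library, titled si-circPTK2-CON, and 2 libraries in which circPTK2, a circular transcript of PTK2, was targeted, titled si-circPTK2-1 and si-circPTK2-2. The libraries are called si-1 and si-2 below. The titles name siRNAs while the series' design text names sh derivatives of both lines, and what the control reagent is was not stated. No time after knockdown was given, and nothing says that si-1 and si-2 libraries came from separate cultures, so the spread between them may be technical.

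The nuclear lamina is a meshwork under the inner nuclear membrane, built of the B-type lamins encoded by LMNB1 and LMNB2 and the A-type lamins encoded by LMNA. Proteins of the inner membrane tie it to chromatin: LBR binds B-type lamins and heterochromatin and is also a sterol reductase, while emerin (EMD) and the LAP2 proteins (TMPO) carry a LEM domain that binds BAF, the small DNA-bridging protein encoded by BANF1. SUN1 and SUN2 cross the inner membrane and bind KASH proteins of the outer membrane such as nesprin-2 (SYNE2), which joins the lamina to the cytoskeleton. Loss of lamin B1 is a known mark of senescent cells, and the ratio of A-type to B-type lamins is known to bear on how stiff a nucleus is.

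Total counts were 65111683 to 72362436 per library, of which 55071837 to 60780176 fell in named genes. Mitochondrially encoded genes took up 2.68% of the named counts of the T24 control and 3.36 and 3.5% after knockdown, and 4.62% in the UMUC3 control and 4.26 and 4.62% after knockdown, and their part in the results below was not tested. The urothelial and epithelial markers summed to 3281 to 3465 CPM (counts divided by the TMM-adjusted library size) in the T24 libraries and to 179 to 200 CPM in the UMUC3 libraries. Within these sums KRT7 stood at 171 CPM in the control, 480 CPM in si-1 and 708 CPM in si-2 of T24, and KRT18 at 836, 425 and 390 CPM. Of the 15 measured markers 7 were under 1 CPM in every library, among them KRT5, KRT20, UPK1A, UPK1B, UPK2, TP63 and CDH1, and KRT19 and GATA3 were also under 1 CPM in UMUC3. Immune markers summed to 7.5 to 9.3 CPM in T24 and 29.1 to 54.6 CPM in UMUC3, with PTPRC at 0.07 CPM or less in all 6 libraries. CD68 made up most of the UMUC3 sums, with 28.2 CPM in the control, 54.2 CPM in si-1 and 51.2 CPM in si-2. The part of these markers in the results below was not tested. In bulk RNA, fewer cells with a transcript and less of it per cell cannot be told apart.

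Several members have main transcripts that differ in named stretches, and the counts of these transcripts, as the authors assigned them, turned out to differ widely between libraries. Several of these stretches are therefore shown first, read from GENCODE 29 transcripts on GRCh38, 5′ to 3′ in the sense of the gene. All 129 transcripts had the same start and end in that annotation as in the deposited table. For LMNB1 the first 120 coding bases are shown, from exon 1 of LMNB1-201 (chr5:126777509-126777628, plus strand), with the start codon in capitals. LMNB1-208, annotated as a processed transcript with no coding region, shares 9 of the 11 exons of LMNB1-201, but its first exon is 92 bases long instead of 720 and lacks this stretch.
LMNB1-201, start of the coding region: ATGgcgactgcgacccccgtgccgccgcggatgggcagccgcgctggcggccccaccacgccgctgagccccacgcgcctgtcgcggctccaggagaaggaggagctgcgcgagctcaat

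LMNA-201 lacks exon 10 of LMNA-206, and LMNA-205 lacks 150 coding bases at the end of its exon 11.

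TMPO makes LAP2 alpha, which stays in the nucleoplasm, and LAP2 beta, which sits in the inner membrane. TMPO-202 (coding length 2082 bases, LAP2 alpha) and TMPO-212 (1362 bases, LAP2 beta) part at exon 4. The first 120 bases of exon 4 of TMPO-202 (chr12:98532823-98532942, plus strand) and the whole exon 4 of TMPO-212 (chr12:98537475-98537572, plus strand) are coding.
TMPO-202, exon 4: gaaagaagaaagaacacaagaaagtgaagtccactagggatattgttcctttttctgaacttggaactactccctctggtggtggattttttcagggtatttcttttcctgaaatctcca
TMPO-212, exon 4: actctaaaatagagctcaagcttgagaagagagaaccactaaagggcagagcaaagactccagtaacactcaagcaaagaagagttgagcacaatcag

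SUN2-201 has 63 coding bases in its exon 5 that SUN2-202 lacks (chr22:38750321-38750383, minus strand). SYNE2-204 has an exon of 69 coding bases, its exon 107, that SYNE2-202 lacks (chr14:64215286-64215354, plus strand), close to the end of a gene with 116 exons in SYNE2-204.
SUN2-201, exon 5 stretch: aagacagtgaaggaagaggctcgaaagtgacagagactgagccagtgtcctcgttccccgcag
SYNE2-204, exon 107: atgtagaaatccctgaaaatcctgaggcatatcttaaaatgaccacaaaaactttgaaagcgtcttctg

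LMNB1 (ENSG00000113368, chr5:126776623-126837020, plus strand) was lower in all 4 knockdown libraries when all its transcripts were summed. It stood at 260.4 CPM in the T24 control against 87.9 CPM in si-1 and 104.5 CPM in si-2. In UMUC3 it stood at 208.1 CPM in the control against 72.4 CPM in si-1 and 74.3 CPM in si-2. Both pairs of knockdown libraries lay close together and far from their control. The fitted log2 difference was -1.47 ± 0.12 (SE) in both lines together, -1.44 ± 0.14 in T24 and -1.50 ± 0.14 in UMUC3, from edgeR's quasi-likelihood fit over all genes.

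The transcripts of LMNB1 did not share this difference evenly. LMNB1-208, the form without the stretch shown above, held 7885 counts (51.0% of the gene) in the T24 control and 5776 counts (49.7%) in the UMUC3 control. It held 2305 counts (44.1%) in T24 si-1 and 0 counts in T24 si-2, UMUC3 si-1 and UMUC3 si-2. LMNB1-201, which encodes lamin B1, held 6861 counts in the T24 control, 2140 in si-1 and 5152 in si-2, and 5202 counts in the UMUC3 control, 3750 in si-1 and 3824 in si-2. In 3 of the 4 knockdown libraries LMNB1-208 was thus at 0, and T24 si-1 alone had both transcripts low, in nearly the proportion of the control.

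With protein-coding transcripts only, an alternative chosen after seeing the data, LMNB1 stood at 132.0 CPM in the T24 control against 43.2 CPM in si-1 and 106.8 CPM in si-2. In UMUC3 the values were 112.6 CPM in the control and 79.6 and 77.1 CPM after knockdown. All 4 knockdown libraries stayed below their control, but the fitted log2 difference shrank from -1.47 to -0.67 in both lines together, from -1.44 to -0.82 in T24 and from -1.50 to -0.52 in UMUC3. The T24 libraries then disagreed, with log2 differences of -1.60 in si-1 and -0.30 in si-2. Whether reads changed transcript or LMNB1-208 itself changed was not tested.

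LMNB2 (ENSG00000176619, chr19:2427638-2456996, minus strand), the other B-type lamin gene, differed between the lines. In T24 it was highest in the control, at 945.1 CPM against 837.0 CPM in si-1 and 748.4 CPM in si-2. In UMUC3 the control was far below the knockdown libraries, at 383.2 CPM against 856.9 CPM in si-1 and 773.9 CPM in si-2. The UMUC3 knockdown libraries thus reached the range of the T24 libraries, and the fitted log2 difference was 1.09 ± 0.12 in UMUC3 and -0.25 ± 0.11 in T24. LMNB2-201 held 99.7 to 99.9% of the counts in every library, so these values do not depend on how reads were split between transcripts of the gene. TIMM13 overlaps the end of LMNB2 on the same strand. It had 30.4% as many counts as LMNB2 in the UMUC3 control, the library where LMNB2 was lowest, and 6.0 to 14.5% in the other 5. TIMM13 itself held 6507, 6974 and 5994 counts in the control, si-1 and si-2 of UMUC3 and 4794, 2991 and 2693 in those of T24. Its part in the LMNB2 values was not tested.

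LMNA (ENSG00000160789, chr1:156082573-156140089, plus strand) was higher in all 4 knockdown libraries. The T24 control gave 603.0 CPM, si-1 1283 CPM and si-2 1191 CPM. The UMUC3 control gave 553.2 CPM, si-1 968.5 CPM and si-2 941.0 CPM. Controls and knockdown libraries did not overlap, within a line or across the lines. Of all genes, 13.3% had all 4 knockdown libraries above the control of their line. No such share was taken across the lines. The fitted log2 difference was 0.91 ± 0.10 in both lines together, 1.04 ± 0.08 in T24 and 0.79 ± 0.08 in UMUC3, and with protein-coding transcripts only it was 0.95 in both lines together.

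In T24 each library had another main LMNA transcript. LMNA-201, without exon 10, held 83.84% of the counts in the control (30025 counts). LMNA-206, the full-length prelamin A form, held 97.03% in si-1 (74039 counts). LMNA-205, without those 150 bases of exon 11, held 91.42% in si-2 (64695 counts) and had 0 counts in the other 5 libraries. In UMUC3 LMNA-206 held 95.15 to 96.14% in all 3 libraries. The gene's sum in the T24 knockdown libraries was close while its main transcript was not, and LMNA-205 also ends earlier than LMNA-206 (2253 against 3190 bases in all), so the values do not tell a change of splicing from another assignment of the same reads. LMNA-207 was not among the 18 LMNA transcripts counted here, so the gene's sum and shares cover those 18 only. Whether reads of LMNA-207 were lost or assigned to the others was not tested.

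**Figure D1:**
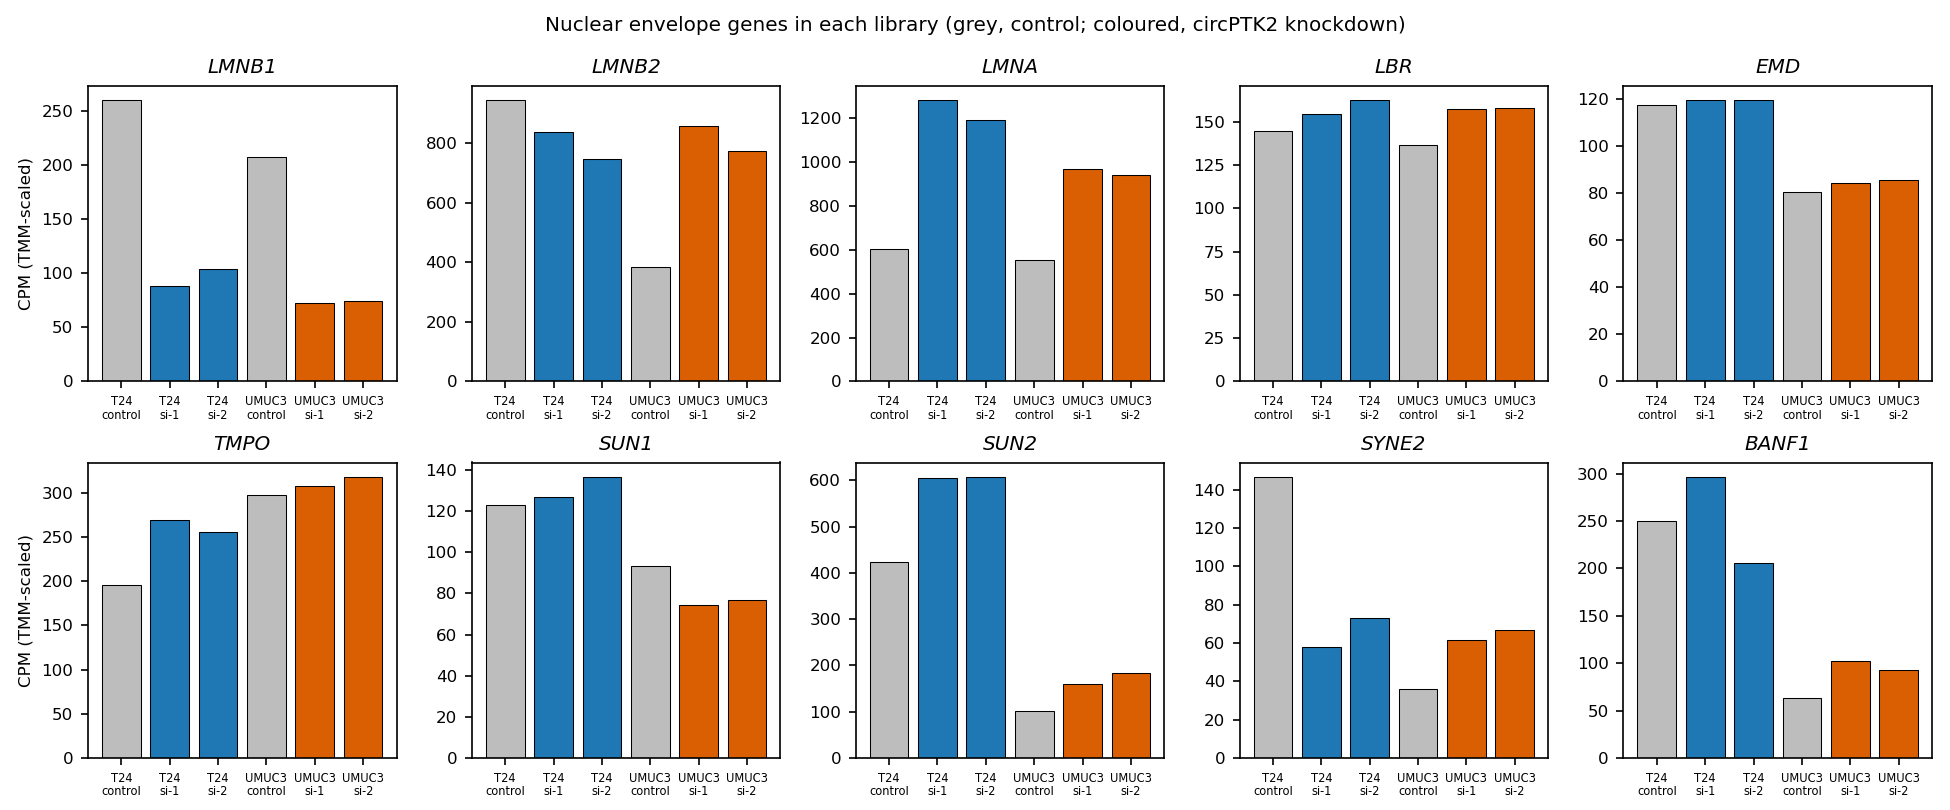
Bars give the TMM-scaled CPM of each of the 10 genes (y axes, each from 0) in the 6 libraries, with 1 bar per library, grey for controls and coloured for knockdown. LMNB1 bars of all 4 knockdown libraries are below 105 CPM against controls of 208.1 CPM and more, LMNA bars are higher after knockdown in both lines, and LMNB2 and SYNE2 bars go opposite ways in T24 and UMUC3.

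LBR (ENSG00000143815, chr1:225401502-225428925, minus strand) differed little. The T24 control gave 144.7 CPM, si-1 154.9 CPM and si-2 162.7 CPM. The UMUC3 control gave 136.7 CPM, si-1 157.5 CPM and si-2 158.3 CPM. All 4 knockdown libraries were above their control by 0.10 to 0.21 on the log2 scale. LBR-202, which has the same coding length as LBR-201 (1845 bases) but another first exon, held 15.36% of counts in T24 si-1, 34.53% in T24 si-2 and none in the T24 control or any UMUC3 library.

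EMD (ENSG00000102119, chrX:154379197-154381523, plus strand), which encodes emerin, was the steadiest member. It was measured at 117.7, 119.5 and 119.5 CPM in the T24 control, si-1 and si-2, and at 80.6, 84.1 and 85.6 CPM in UMUC3. The log2 differences were 0.02 and 0.02 in T24 and 0.06 and 0.09 in UMUC3, all above 0 and all small. EMD-202 held 77.69 to 84.99% of its counts.

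TMPO (ENSG00000120802, chr12:98515512-98550379, plus strand) was lowest in the T24 control, with 196.1 CPM against 268.9 CPM in si-1 and 255.5 CPM in si-2. In UMUC3 the 3 libraries were close, at 296.9 CPM in the control and 307.4 and 318.3 CPM after knockdown. The T24 difference lay in TMPO-202, the LAP2 alpha form, with 340 counts (2.92%) in the control, 5507 (34.44%) in si-1 and 4762 (31.36%) in si-2. TMPO-202 held 28.58 to 36.54% of the gene in the 3 UMUC3 libraries. TMPO-212, the LAP2 beta form, held 9638 counts in the T24 control and 9223 and 9584 after knockdown, and so stayed level while TMPO-202 went from 2.92% to over 31% of the gene's counts. TMPO-AS1, an antisense gene over the start of TMPO, had 15.0% as many counts in the T24 control and 2.4 to 7.1% in the other 5 libraries, and without known strand its reads cannot be told apart from those of TMPO.

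SUN1 (ENSG00000164828, chr7:816615-896435, plus strand) differed in opposite directions in the lines by small amounts. T24 gave 122.7 CPM in the control, 126.7 CPM in si-1 and 136.8 CPM in si-2. UMUC3 gave 93.5 CPM in the control, 74.2 CPM in si-1 and 76.7 CPM in si-2. SUN1-212 held 79.24 to 88.92% of the counts in every library. The counted SUN1 transcripts end by position 874920, short of the annotated end of the gene. GET4, a gene that overlaps the annotated extent of SUN1 on the same strand, had 51.9, 30.8 and 22.5% as many counts in the control, si-1 and si-2 of T24 and 30.3, 26.9 and 18.6% in those of UMUC3. Whether it overlaps the counted transcripts was not tested. The counts of GET4 were lower after knockdown in both lines, and its part in the SUN1 values was not tested.

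SUN2 (ENSG00000100242, chr22:38734725-38794143, minus strand) was higher in all 4 knockdown libraries. Its T24 values were 424.5 CPM in the control, 606.3 CPM in si-1 and 608.4 CPM in si-2. Its UMUC3 values were 100.8 CPM in the control, 160.5 CPM in si-1 and 183.7 CPM in si-2. The fitted log2 difference was 0.64 ± 0.12 in both lines together. GTPBP1 overlaps SUN2 on the opposite strand. It had 34.6, 18.9 and 18.2% as many counts as SUN2 in the control, si-1 and si-2 of T24 and 58.1, 35.4 and 43.4% in those of UMUC3. GTPBP1 itself held 8718, 6809 and 6570 counts in those of T24 and 3270, 3186 and 4854 in those of UMUC3. Its part in the SUN2 values was not tested. The main transcript of SUN2 differed between the libraries titled si-1 and the others. In T24 the number in the data column is the reverse of the title's. SUN2-202, without the 63 bases shown above, held 91.10% of the counts in T24 si-1 and 76.56% in UMUC3 si-1. SUN2-201 held 86.06 and 86.93% in the T24 control and si-2, and 58.33 and 91.84% in the UMUC3 control and si-2. The gene's sum was alike in the paired knockdown libraries although the main transcript was not.

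SYNE2 (ENSG00000054654, chr14:63852983-64226433, plus strand) had the widest gap of the 10 members between the lines in how knockdown libraries stood to controls. In T24 it was at 146.9 CPM in the control against 58.1 CPM in si-1 and 73.3 CPM in si-2. In UMUC3 it was at 36.2 CPM in the control against 61.6 CPM in si-1 and 66.8 CPM in si-2. The 4 knockdown libraries lay between 58.1 and 73.3 CPM, with the T24 control above them and the UMUC3 control below. The fitted log2 difference was -1.16 ± 0.18 in T24 and 0.83 ± 0.20 in UMUC3. SYNE2-204 held most counts everywhere, from 51.14 to 87.71%, and SYNE2-202, without exon 107, held 28.66% in the T24 control, 43.30% in UMUC3 si-2 and none in the other UMUC3 libraries.

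BANF1 (ENSG00000175334, chr11:66002079-66004149, plus strand) stood at 249.96 CPM in the T24 control, with si-1 above at 297.0 CPM and si-2 below at 205.9 CPM. In UMUC3 both knockdown libraries were above the control, at 101.9 and 92.8 CPM against 63.4 CPM. BANF1-201 held 69.76 to 79.20% of the counts, and BANF1-201, BANF1-202 and BANF1-208 have the same coding length of 267 bases. EIF1AD overlaps its start on the opposite strand. It had 70.9% as many counts as BANF1 in the UMUC3 control, 35.9 and 34.7% in the UMUC3 knockdown libraries and 14.6 to 20.2% in T24. EIF1AD itself held 2509, 2052 and 1958 counts in the control, si-1 and si-2 of UMUC3 and 2448, 2574 and 2466 in those of T24. Its part in the BANF1 values, between libraries and between lines, was not tested. The named processed pseudogene copy BANF1P3 had 0.51%.

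**Figure D2:**
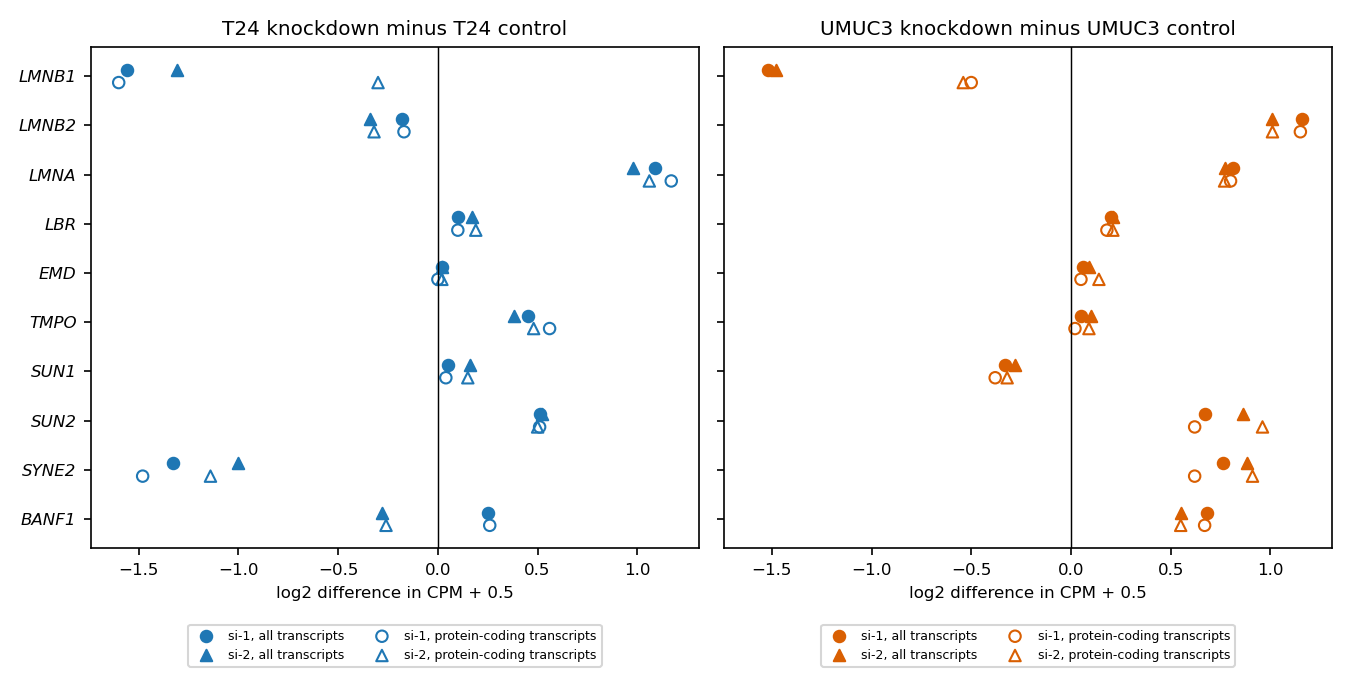
Points give, for each gene (y axis), the log2 difference in CPM + 0.5 (x axis) between a knockdown library and the control of its line, circles for si-1 and triangles for si-2, filled for all transcripts and open for protein-coding transcripts only. LMNB1 moves from between -1.56 and -1.31 to -0.30 in T24 si-2 and to -0.50 and -0.54 in UMUC3 when only coding transcripts are counted, while LMNA and LMNB2 hardly move.

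Against the background of all 20721 genes tested, 5 members (LMNA, LBR, EMD, TMPO and SUN2) were above their control in all 4 knockdown libraries, as were 13.3% of all genes. LMNB1 was the 1 member below in all 4, as were 15.1% of all genes. LMNB2, SUN1 and SYNE2 were on opposite sides in the lines, against 24.4% of all genes. In T24 alone 6 members were above the control in both knockdown libraries (34.7% of all genes) and 3 below (37.3%). In UMUC3 alone 8 were above (35.6%) and 2 below (37.1%). The median log2 difference of the members was 0.21 in both lines together, 0.06 in T24 and 0.41 in UMUC3, beside 0.00 over all genes in each.

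The edgeR test called 0 members at an adjusted p under 0.05 in both lines together (0.0145% of all genes called; 3 members at an unadjusted p under 0.05, and 3 called by DESeq2) and 0 in T24 (0.135% of all genes; 5 unadjusted, 3 by DESeq2). In UMUC3 it called 1, LMNB1 (0.647% of all genes; 6 unadjusted, 5 by DESeq2), and that call was absent with protein-coding transcripts only, with the older form of the quasi-likelihood fit, and when any 1 knockdown library of either line was left out. The difference of the knockdown effect between the lines, T24 minus UMUC3, called 0 members (0.0579% of all genes; 3 unadjusted, 2 by DESeq2), with values of -1.34 ± 0.16 for LMNB2, -1.99 ± 0.27 for SYNE2 and 0.41 ± 0.16 for SUN1. Of all 20721 genes, 11.6% had an unadjusted edgeR p under 0.05 in both lines together and 12.5% in T24. The share was 16.8% in UMUC3 and 13.5% for the difference between the lines. DESeq2 called 981, 980, 1715 and 1120 of the 20721 genes in the same order. As the members were chosen with these contrasts known, nothing is read from the numbers of members called.

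Line against line, over all 6 libraries, SUN2 stood higher in T24 by 1.90 ± 0.11 on the log2 scale and BANF1 by 1.57 ± 0.20, the widest line differences among the members. SUN1 (0.67 ± 0.13) and EMD (0.51 ± 0.10) were also above UMUC3 in every T24 library, and TMPO was below UMUC3 in every one (-0.37 ± 0.11). So 4 members had all T24 libraries above all UMUC3 libraries, beside 27.2% of all genes, and 1 had them all below, beside 25.1%. The test called 7 members between the lines, where 40.2% of all genes were called. It called 3 without T24 si-1 (6052 of 20170 genes) or without UMUC3 si-2 (5913 of 20119 genes). With a replicate block it called 4 (6847 of 20721 genes). LBR was nearly equal in the lines (0.03 ± 0.10). LMNB2 (0.40 ± 0.29) and SYNE2 (0.67 ± 0.44) were 2.47 and 4.06 times as high in the T24 control as in the UMUC3 control, a gap that the knockdown libraries did not show.

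Levels of different genes were compared only per length, with each transcript's counts divided by its length and each library then scaled to the same sum, as TPM values are. In the T24 control the order was BANF1 (467.7), LMNA (426.7), LMNB2 (417.7), SUN2 (248.7), LMNB1 (244.6), EMD (190.0), TMPO (154.7), LBR (85.8), SUN1 (81.1) and SYNE2 (22.6). In the UMUC3 control it was LMNA (346.4), LMNB1 (180.2), LMNB2 (158.5), TMPO (153.8), EMD (124.5), BANF1 (113.5), SUN2 (86.4), LBR (73.7), SUN1 (61.5) and SYNE2 (6.43). LMNB1 on this scale was 78.6 and 77.5 in the T24 knockdown libraries and 47.7 and 53.4 in those of UMUC3. After knockdown LMNB1 was below EMD, TMPO and LBR in all 4 libraries, whereas it was above all 3 in both controls. The short LMNB1-208 counts for 151.1 of the 244.6 in the T24 control and 109.4 of the 180.2 in the UMUC3 control. LMNB1-201 alone was at 82.3 and 61.7 in these controls, below the sums of EMD, TMPO and LBR. The place of LMNB1 above EMD and TMPO in the controls thus rested on LMNB1-208. LMNA led in all 4 knockdown libraries, with 833.8 and 1064 in T24 and 598.2 and 602.4 in UMUC3. In CPM T24 si-2 was below si-1 for LMNA (1191 against 1283), while per length 976.3 of its 1064 came from the shorter LMNA-205. On this scale TMPO in T24 was at 154.7 in the control, 175.2 in si-1 and 155.5 in si-2. Of these, TMPO-209, annotated as a processed transcript of 696 bases, made up 34.1, 2.83 and 5.23.

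**Figure D3:**
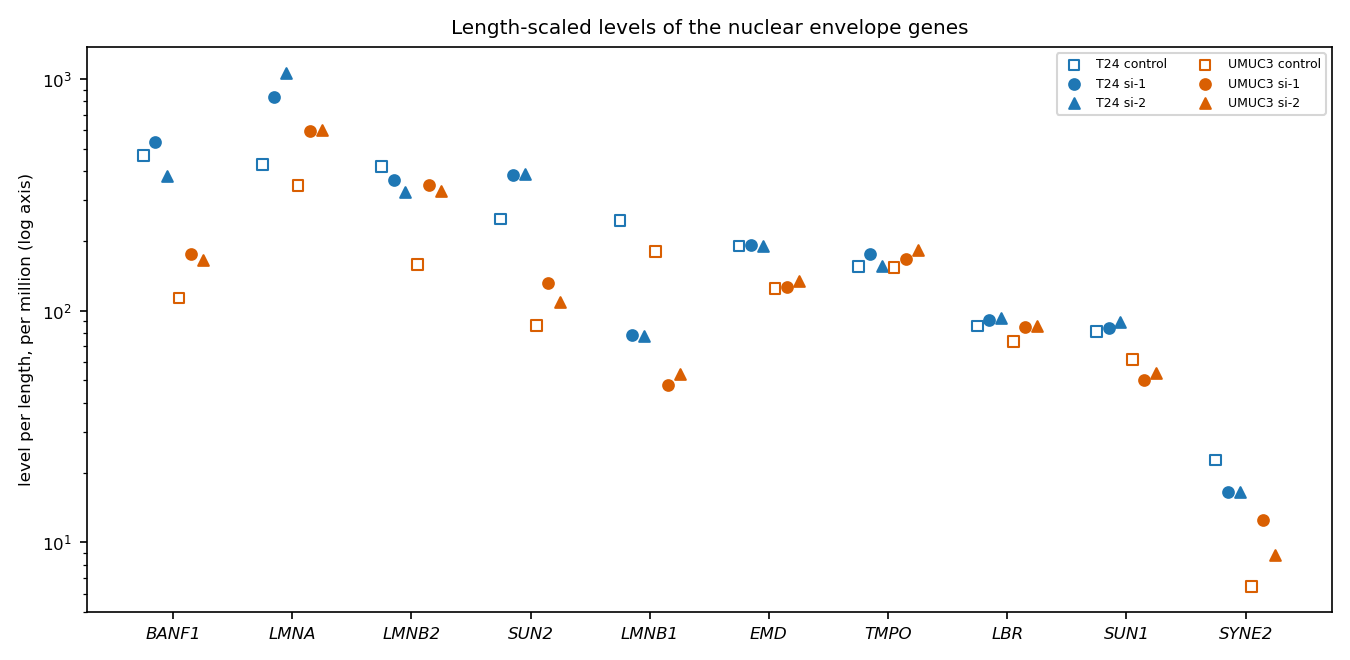
Points give the length-scaled level on that TPM scale (y axis, log scale) of each gene (x axis, ordered by the T24 control) in the 6 libraries, open squares for controls, circles for si-1, triangles for si-2, blue for T24 and orange for UMUC3. LMNA is the highest gene in every knockdown library, and SYNE2 is the lowest gene in all 6 libraries. LMNB1 stands at 244.6 and 180.2 in the controls and between 47.7 and 78.6 after knockdown. The noncoding LMNB1-208 makes up 151.1 and 109.4 of the control values.

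How far a gene's transcript shares moved was read as the sum of the absolute share differences over its transcripts, divided by 2, for the pair of libraries within the line where this was greatest. A value of 1 means no transcript in common. It was 0.51 in T24 and 0.50 in UMUC3 for LMNB1, 0.94 and 0.01 for LMNA, 0.89 and 0.94 for SUN2, 0.15 and 0.44 for SYNE2, 0.35 and 0.01 for LBR, and 0.32 and 0.08 for TMPO. LMNB2 was at 0.001 in both lines, and EMD, SUN1 and BANF1 were under 0.09 in both. The median of the members was 0.236 in T24 and 0.064 in UMUC3, beside 0.225 and 0.229 over 14437 tested genes with at least 2 transcripts.

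**Figure D4:**
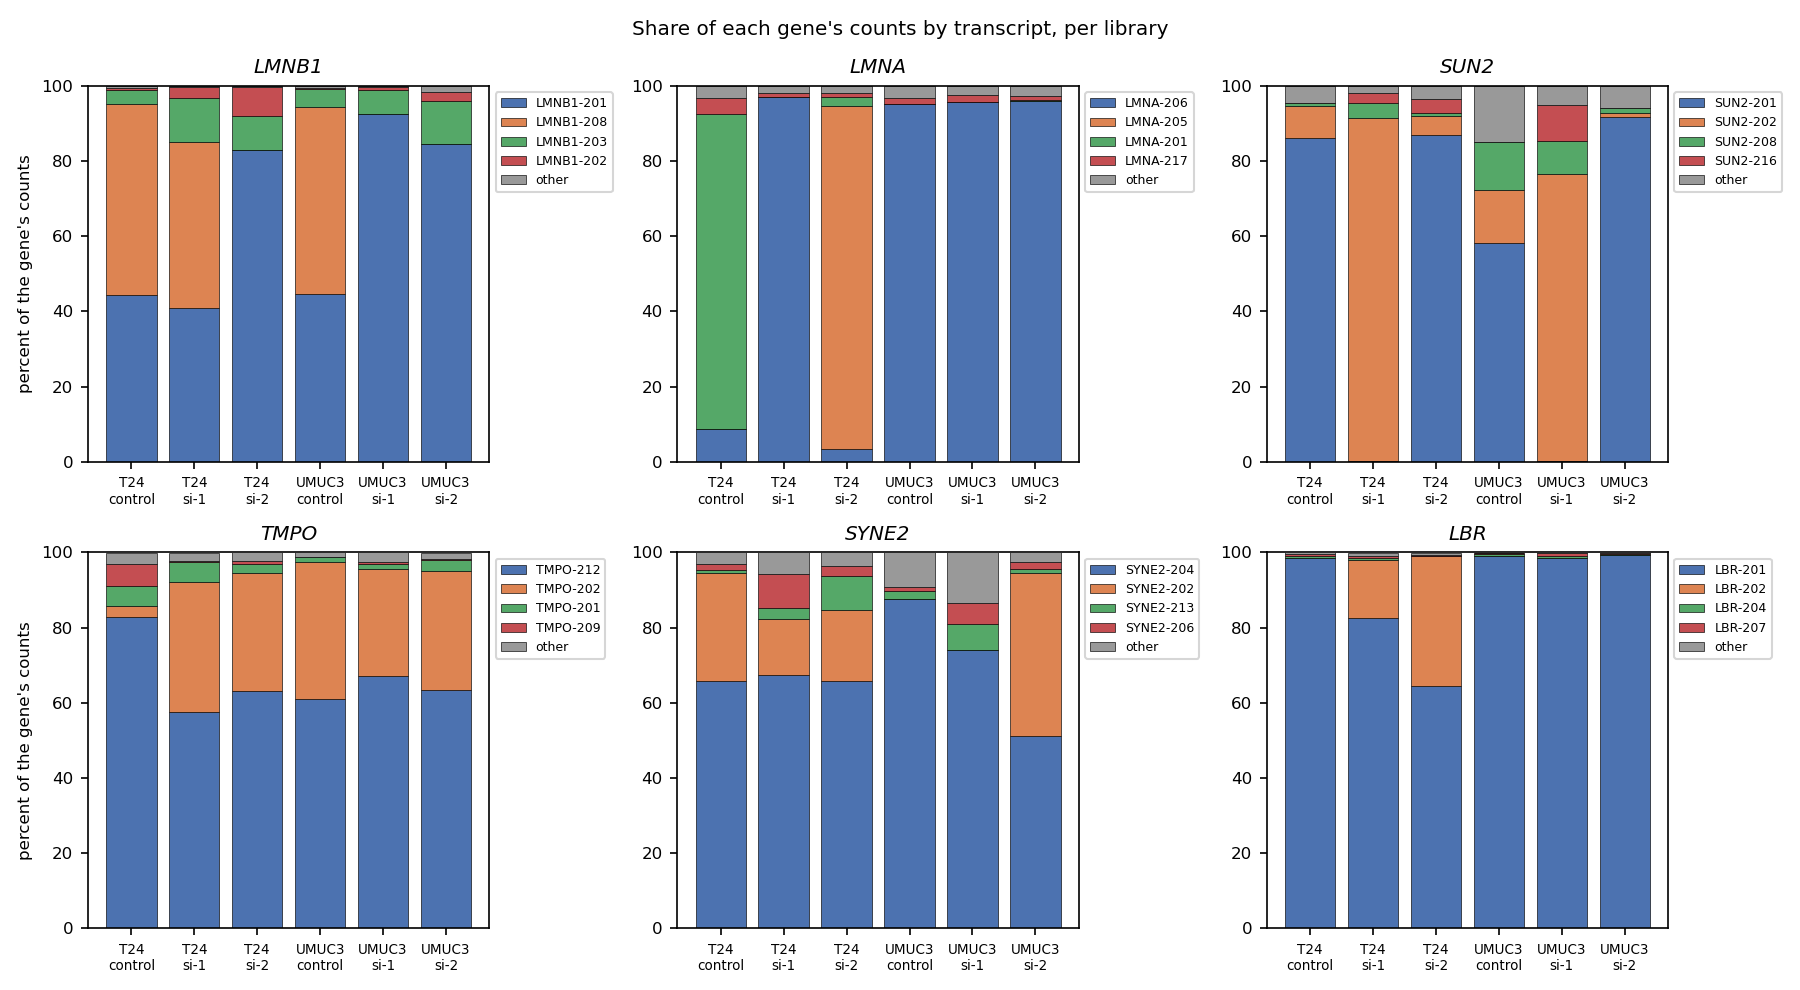
Stacked bars give the percent of a gene's counts (y axis, 0 to 100) on its 4 most counted transcripts and on all others, for 6 genes in each of the 6 libraries. LMNB1-208 is present in both controls and T24 si-1 only, each T24 library has another main LMNA transcript, and SUN2-202 leads in the si-1 library of both lines.

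The promoter of LMNB1 is shown because its annotated starts can be set beside the counts. LMNB1-203, which starts upstream and is annotated as subject to nonsense-mediated decay, held 264 to 618 counts in every library. It held 537 counts in the T24 control, 618 in si-1 and 556 in si-2, and 545 in the UMUC3 control, 264 in si-1 and 515 in si-2, so it was clearly lower in UMUC3 si-1 alone. The window from 250 bases before to 50 after the main start (RefSeq, GRCh38.p14, chr5:126776886-126777185, plus strand, GC content 73.7%) is printed with motif matches in capitals. Promoter windows were found for 9 of the 10 members, all but SUN1, and 4 motifs were searched on both strands. The CCAAT box (CCAAT) matched in the window shown and in 7 of 17 member windows (41.2%), beside 34.6% of all 35116 windows. The E-box CACGTG matched in 1 of the 17, the LMNB1 window shown, beside 7.26% of all windows. The E2F forms TTTCCCGC (1.63% of windows) and TTTGGCGC (0.652%) matched in 1 member window, of LMNA, and in 0, respectively. None of the 4 motifs contains another, and a match is a description of these letters only.
LMNB1 promoter: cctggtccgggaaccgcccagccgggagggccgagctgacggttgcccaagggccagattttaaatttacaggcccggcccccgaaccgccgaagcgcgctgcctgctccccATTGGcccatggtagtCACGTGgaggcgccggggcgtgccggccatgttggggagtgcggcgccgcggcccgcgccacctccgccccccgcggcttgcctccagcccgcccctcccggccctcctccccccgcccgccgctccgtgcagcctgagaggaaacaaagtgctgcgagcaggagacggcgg

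The genes whose knockdown differences lay nearest to those of LMNB1, by Euclidean distance over the 4 log2 differences among 11129 genes of at least 5 CPM, were POLE3 (distance 0.292), TDG (0.362), GLYR1 (0.386), GNAI1 (0.397) and KBTBD6 (0.403). POLE3, a histone-fold subunit of DNA polymerase epsilon, went from 160.0 CPM in the T24 control to 63.4 and 59.1 CPM and from 156.3 CPM in the UMUC3 control to 59.0 and 53.5 CPM. TDG, a DNA glycosylase of base excision repair, went from 36.5 to 10.4 and 13.6 CPM in T24 and from 39.2 to 11.9 and 11.5 CPM in UMUC3. The control libraries are shared by all of these differences, so the likeness is a description.

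The rest of the nuclear envelope and of its partners was read from 9 further lists with 101 genes, of which 100 were tested. In both lines together edgeR called 0 of the 100, beside 0.0145% of all genes. At an unadjusted p under 0.05 there were 14, or 14% against 11.6% of all genes, and DESeq2 called 5, against 981 of all 20721. In T24 edgeR also called 0, beside 0.135% of all genes. There 19 were at an unadjusted p under 0.05, against 12.5% of all genes, and DESeq2 called 10, against 980 of all 20721. In UMUC3 edgeR called 3 of the 100, 1 higher and 2 lower, beside 0.647% of all genes. There 23 were at an unadjusted p under 0.05, against 16.8% of all genes, and DESeq2 called 13, against 1715 of all 20721. Over all genes no UMUC3 call by edgeR was left with protein-coding transcripts only or without any 1 knockdown library.

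The inner membrane list (10 genes) had a median log2 difference of -0.04 in both lines together. NEMP1 stood at 1.17 ± 0.65 and TMEM43, a partner of emerin, at 0.20 ± 0.12. The UMUC3 libraries disagreed for NEMP1, with 25.0 CPM in the control, 22.4 CPM in si-1 and 110.6 CPM in si-2. In T24 it gave 21.6, 36.3 and 46.2 CPM in the control, si-1 and si-2. Among 4 tested LINC genes SPAG4, a SUN domain protein, stood at -0.80 ± 0.29 and SYNE1, the gene of nesprin-1, at -0.06. SYNE3 differed in opposite directions in the lines, at -1.31 ± 0.20 in T24 and 2.21 ± 0.22 in UMUC3. Its difference between the lines, -3.52 ± 0.30, was wider than that of SYNE2. Of the 5 genes that farnesylate, cut and methylate prelamin A and B-type lamins, 4 were positive (median 0.09), with the methyltransferase ICMT at 1.01 ± 0.32 and the protease RCE1 at 0.58 ± 0.16. For ICMT the UMUC3 control gave 71.3 CPM and the knockdown libraries 262.8 and 184.7 CPM, and the T24 control gave 146.2 CPM and the knockdown libraries 196.5 and 206.2 CPM. The torsin list had TOR2A at 0.85 ± 0.26 and TOR3A at 0.47.

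Nuclear pore genes (30 tested) had a median of -0.06 in both lines together, with 11 positive and 19 negative. NUP160 and SEH1L, both of the Y complex that scaffolds the pore, had the smallest p, at -0.43 ± 0.11 and -0.80 ± 0.23. The list of envelope resealing and phosphorylation (13 genes) had a median of 0.11. Its members with the smallest p were SPAST, the microtubule-severing spastin that acts in envelope resealing, with 35.3, 20.2 and 18.5 CPM in the control, si-1 and si-2 of T24 and 43.7, 26.2 and 13.8 CPM in those of UMUC3, and the ESCRT gene CHMP2A, at -0.29.

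Heterochromatin partners (8 genes) had a median of 0.03 in both lines together. CBX5, the gene of HP1 alpha, which binds LBR, gave 373.7 CPM in the T24 control, 181.5 CPM in si-1 and 179.2 CPM in si-2, and in UMUC3 253.8 CPM in the control, 157.1 CPM in si-1 and 184.3 CPM in si-2 (log2 -0.82 ± 0.14, edgeR adjusted p = 0.167). RB1 stood at -0.37. HDAC1, a histone deacetylase, rose in UMUC3 (1.12 ± 0.09, edgeR adjusted p = 0.0439), from 122.5 CPM to 271.8 and 260.2 CPM, and stood at 0.05 ± 0.08 in T24.

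Proliferation and arrest genes were listed because lamin B1 is known to be lost in senescence. The 15 proliferation genes had a median of 0.00 in both lines together, 0 were called, and their summed level was 3599, 3408 and 3407 CPM in the control, si-1 and si-2 of T24 and 3156, 3363 and 3465 CPM in those of UMUC3. Their members with the smallest p were the helicase gene MCM2 (-0.53 ± 0.20) and the mitotic kinase gene PLK1 (-0.34 ± 0.09). MCM2 stood at -0.92 ± 0.10 in T24 and at -0.10 ± 0.10 in UMUC3. The 10 arrest genes had a median of 0.18 in both lines together, with 6 positive and 4 negative. Their median was 0.36 in T24 and -0.02 in UMUC3. Among them CDKN1A, which encodes the cell cycle inhibitor p21, fell in UMUC3 by 2.33 ± 0.15 in log2 terms (adjusted p = 0.0421 from edgeR). It went from 444.2 CPM to 95.6 and 80.8 CPM there, and stood at -0.77 ± 0.15 in T24. TP53INP1, a p53 target, stood at -1.32 ± 0.23 in both lines together and was near 0.07 CPM in all UMUC3 libraries.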

How the data were processed

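Counts per transcript in 6 libraries were taken as deposited by the authors, with no normalisation. The build hg38 and the tools StringTie 1.3.3b, HISAT2 2.1.0 and FastQC 0.11.5 are named in the submitters' processing notes, without role or order. Strand and poly(A) selection are not given in the sources used here. Of 136953 transcripts, 15038 carry no gene or position. They held 14.86 to 16.1% of a library's counts and were left out, so reads of the members' loci that went to them are not measured. The other 121915 were summed to 30717 genes, and lengths, types and exons came from GENCODE 29.

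A gene was tested where 2 or more libraries had 10 counts or more and the total reached 30, with edgeR 4.0.16 in R 4.3.3 (TMM, robust quasi-likelihood fit, Benjamini-Hochberg over all 20721 genes, threshold 0.05). An additive model of line plus knockdown gave both lines together and line against line (residual degrees of freedom 3). A model of 4 groups gave each line alone and the difference between lines (residual degrees of freedom 2), the lone control being assumed to vary like the knockdown pairs. The fit was also run on simulated counts with the same spread for every gene and no line difference, unlike these data. That run does not show how the fit does here. DESeq2 1.42.0 was an alternative. Paired knockdown libraries differed beyond sampling noise (chi-square per degree of freedom 112.3 in T24, 108.2 in UMUC3). In T24 the siRNA number of the title and that of the data column are swapped, and titles were used.

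The members, lists and tests were chosen with earlier results of these data known. All members are named. Of the other lists, genes called in a knockdown comparison and up to 2 with the smallest p in both lines together are named, and the 5 genes nearest to LMNB1 among those of at least 5 CPM. SYNE3 is named outside this rule, to be set beside SYNE2. A gene of the lists and some sequences are not reported here.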

Additional observations from a re-analysis of the deposited data

Results flagged for a closer look

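LMNB2, SYNE2 and SUN1 drew attention because both knockdown libraries of T24 lay on one side of the control and both of UMUC3 on the other. The difference of the log2 knockdown effect, T24 minus UMUC3, was -1.34 for LMNB2, -1.99 for SYNE2 and 0.41 for SUN1. As the genes were picked for lying on opposite sides, these values are a description, and no test of the difference is used as support. Of all genes 24.4% lay on opposite sides in this way.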

How the results depend on the processing

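The members' values were recomputed under each alternative. Of 540 such values 467 moved by less than the spread between paired knockdown libraries and 73 by more, and 10 changed sign, none of them among the 226 with a main value of at least 0.5 in size. Part of the 540 could hardly move. The older form of the fit changes errors and p, not the log2 difference. In the model of 4 groups, a line's log2 difference depends on the other line's libraries only through filter and scaling. The 467 therefore overstate how steady the values were. Without the only control of a line, the fit of both lines together estimates the other line alone. LMNB2 then went from 0.37 to -0.25 without the UMUC3 control (T24 alone), and SYNE2 from -0.29 to 0.83 without the T24 control (UMUC3 alone). LMNB1 was the member most dependent on which transcripts are summed, as given above.

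The number of genes called in the knockdown comparisons differed widely between settings. In both lines together 3 genes were called, against 981 with DESeq2, 8 with no filter, 1 with protein-coding transcripts only, 0 with a replicate block on the number of the titles or of the column names, and 0 to 135 when leaving out 1 library, where the 135 without the T24 control are for UMUC3 alone. In T24 28 genes were called, against 980 with DESeq2, 43 with no filter, 2 with the older form of the quasi-likelihood fit, 1 with protein-coding transcripts only, and 0 to 25 when leaving out 1 library. In UMUC3 134 were called, against 1715 with DESeq2, 224 with no filter, 13 with the older form, 0 with protein-coding transcripts only, and 0 to 135 when leaving out 1 library. The difference between the lines called 12, against 1120 with DESeq2, 5 with RLE factors, 35 with no filter, 5 with the older form, 4 with protein-coding transcripts only, and 0 when leaving out any 1 knockdown library. Between the lines 8329 were called, and 5714 to 9765 under the alternatives. Fits without a library rest on fewer samples, and otherwise the cause was not tested. Without a control, the effect in that line and the difference between lines could not be fitted.

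With the siRNA number of the titles as a replicate block, LMNB1 stood at -1.47 and LMNA at 0.91 in both lines together. Same-numbered knockdown libraries deviated from their group means with a correlation of 0.011 over genes, so the labels' numbers do not show a pairing. The older form of the fit and the coding-only sums were chosen after seeing the data.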
